A study of Mus musculus with 4 samples.

Results

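Levels of 10 genes of the integrated stress response and of serine synthesis were compared in brown fat of Sox4f/f and Sox4-MKO mice. The genes are Atf4, Ddit3, Trib3, Asns, Chac1, Sesn2, Phgdh, Psat1, Mthfd2 and Shmt2. They were chosen by name as ATF4 and genes that it is known to activate, with earlier results of these data known. All 10 were found among the 55287 gene symbols of the deposited tables. RNA sequencing had been performed on brown adipose tissue of 4 male mice aged 15 weeks and housed at room temperature, with 1 library per mouse and 2 mice per genotype. The Sox4f/f mice, which the sample labels call wild type, carry floxed Sox4 alleles. Their Sox4-MKO littermates carry in addition a Cre recombinase under the Myf5 gene, which is active in the lineage of brown adipocytes and skeletal muscle and not in brown adipocytes alone. The labels name brown fat adipocytes, but whole tissue was sequenced, so fewer cells of a type and less RNA per cell cannot be told apart.
The integrated stress response lowers general translation when a kinase phosphorylates the initiation factor eIF2 alpha. Translation of ATF4 is spared, and this bZIP factor activates genes for amino acid synthesis, amino acid transport and the handling of oxidised thiols. Mitochondrial damage is a known trigger, through OMA1, DELE1 and the kinase HRI, and is known to raise the serine and mitochondrial folate enzymes in muscle and other tissues. ATF4 is controlled to a large part at the level of translation, so its mRNA does not give its activity.
ATF4 binds with C/EBP partners to a composite element whose core reads TGATGNAA. This core was searched on both strands of RefSeq promoter windows (GRCm38.p6, 250 bases before to 50 after each start), because it is the sequence through which the group is known to be linked. A window was present for all 10 genes. Asns, Trib3 and Chac1 held a match, against 4.51% of all 27025 symbols with a window. The group was picked for its link to ATF4, so these matches do not test that link. In the following stretches of 30 bases, written 5′ to 3′ on the strand of the gene, the capitals mark the match.
Asns: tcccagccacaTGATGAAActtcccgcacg
Trib3: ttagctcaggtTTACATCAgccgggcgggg
Chac1: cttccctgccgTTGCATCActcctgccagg
The Asns match starts 23 bases upstream of the RefSeq start (chr6:7693214-7693243, minus strand), and lies whole in an Asns exon of GENCODE M21. That of Trib3, on the opposite strand of the gene, starts at base 15 after the RefSeq start (chr2:152344028-152344057, minus strand). GENCODE M21 starts Trib3 further downstream, so the match lies outside its exons there and only the end of the stretch reaches into one. The Chac1 match, also on the opposite strand, starts 193 bases upstream and outside any annotated exon (chr2:119351038-119351067, plus strand). The cAMP response element TGACGTCA and the endoplasmic reticulum stress element, searched on both strands, were in none of the 10 members' windows and in 2.03% and 0.14% of all symbols. Absence of these letters applies to these windows only.
The upstream stretches of Chac1 and Psat1, the members with the largest differences between the genotypes, are given up to the nearest annotated exon, again with the match in capitals.
Chac1 upstream: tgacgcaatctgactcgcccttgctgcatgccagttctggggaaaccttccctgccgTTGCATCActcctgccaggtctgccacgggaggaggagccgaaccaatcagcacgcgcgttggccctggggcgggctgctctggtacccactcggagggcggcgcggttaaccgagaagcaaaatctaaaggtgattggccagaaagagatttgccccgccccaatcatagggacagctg
Psat1 upstream: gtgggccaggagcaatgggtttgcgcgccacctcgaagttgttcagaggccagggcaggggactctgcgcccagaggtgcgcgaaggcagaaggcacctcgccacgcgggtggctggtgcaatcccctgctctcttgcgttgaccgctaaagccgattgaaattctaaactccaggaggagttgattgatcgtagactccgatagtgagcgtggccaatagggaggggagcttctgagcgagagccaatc
They cover chr2:119350992-119351228 (plus strand) and chr19:15925060-15925309 (minus strand). The Psat1 stretch lies upstream of 1 of its 2 RefSeq starts. GENCODE M21 also has a Psat1 transcript that starts 22278 bases further upstream, so the stretch is inside the gene as annotated there. It held no match to the core.

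Values are FPKM, the number of fragments for the length of a transcript and the mapped fragments of a library, as the authors computed it for each gene. Depth, estimated from these values, was 12000000 to 15900000 fragments per library. The deleted gene, Sox4, showed 1.98 and 1.06 FPKM in Sox4f/f, whereas the libraries labelled Sox4-MKO showed 0.98 and 3.06 FPKM, so its mRNA was not lower under that label, and all directions follow the labels. The 10 skeletal muscle markers summed to 225 and 849 FPKM in Sox4f/f mice 1 and 2. In Sox4-MKO mice 1 and 2 they summed to 16141 and 2796 FPKM. Sox4-MKO mouse 1 had by far the most, and Sox4-MKO mouse 2 was also above both Sox4f/f mice. All 10 were higher in Sox4-MKO, 9 of them without overlap, against 21.7% of all tested genes. Fibroblast markers (10 of 10, from 439 and 476 to 992 and 910 FPKM) and macrophage markers (10 of 10, from 221 and 324 to 456 and 448 FPKM) were also higher in Sox4-MKO. Brown adipocyte markers summed to 7602 and 7463 FPKM in Sox4f/f and to 3694 and 4463 FPKM in Sox4-MKO, and none of the 10 was at 0. Most of each sum came from Cox8b, Cidea and Ucp1. Of the 10, 8 were lower in Sox4-MKO without overlap, against 29.6% of all tested genes. Elovl3 and Zic1 overlapped between the genotypes, and Zic1 had a log2 fold change above 0 (0.080). Where such a list moves with a gene below, its part in that gene's difference was not tested.

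The group did not move together. Atf4 and Ddit3 were lower in Sox4-MKO, Psat1 and Chac1 were higher, and 6 members had an unadjusted p of 0.05 or more. Averaged FPKM of Sox4-MKO was 6.23 times that of Sox4f/f for Chac1, from low values, and 3.31 times for Psat1. limma was fitted to log2(FPKM + 1) across the 12877 genes whose mean exceeded 1 FPKM in either genotype, and log2 fold changes below are on that scale, Sox4-MKO minus Sox4f/f, with the standard error (SE) of the fit. After Benjamini-Hochberg adjustment limma called 0 members and 0% of all tested genes, with a smallest adjusted p of 0.191 over all genes. At an unadjusted p under 0.05, 2 members were lower, where 8.28% of all tested genes were, and 2 were higher, where 7.95% were. These shares depend on the scaling: 1066 of all tested genes were lower and 1024 higher as deposited, against 746 and 1322 after rescaling without the mitochondrially encoded genes and Ucp1, which left the members' counts at 2 and 2. Both Sox4f/f mice lay above both Sox4-MKO mice at 5 members (29.6% of all tested genes), and the reverse held at 3 (21.7%). For a single gene, exact permutation of 2 mice against 2 (two-sided) can give no p below 0.333.
Each of the 10 genes passed the filter, Chac1 through its Sox4-MKO value only, so counts over the members are a description. The median log2 fold change was -0.18 over the members and -0.051 over all tested genes, and 6 of the 10 were below 0, as were 56.0% of all tested genes. Ddit3 is listed on 2 rows, of which 1 was at 0 in every library. GENCODE M21 has 2 overlapping gene models of that name, and the values below are those of the other row.

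**Figure D1:**
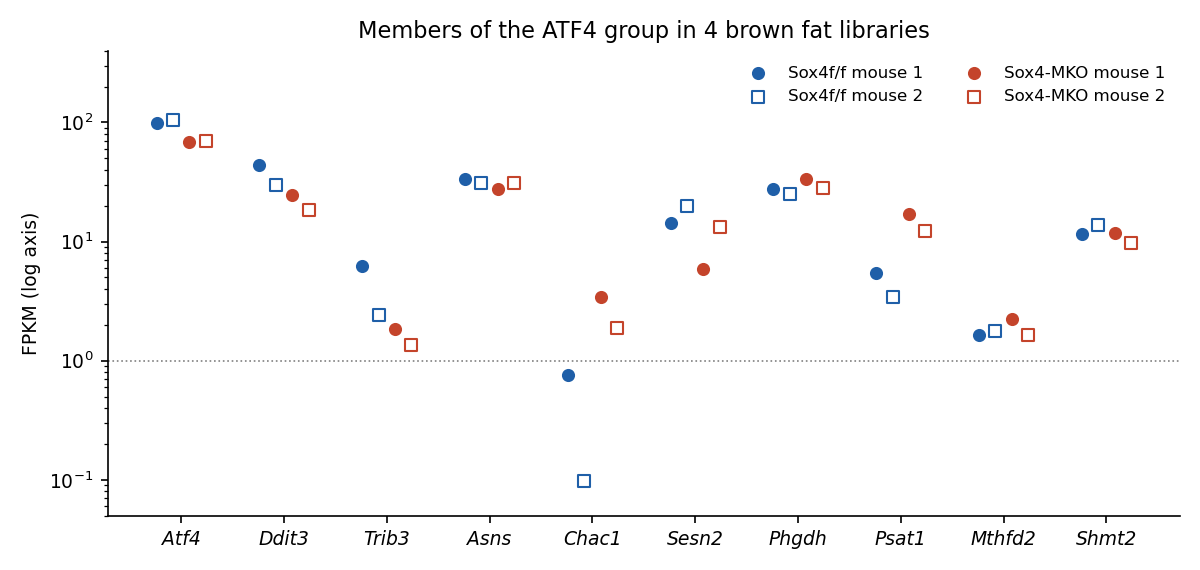
FPKM of each member in the 4 libraries, on a log axis, with Sox4f/f in blue and Sox4-MKO in red, circles for mouse 1 and squares for mouse 2, and the filter value of 1 as a dotted line. Atf4 is highest in every library, and Chac1 is the only member below 1 FPKM, in both Sox4f/f mice.

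In Sox4f/f the order of the averaged levels was Atf4, Ddit3, Asns, Phgdh, Sesn2, Shmt2, Psat1, Trib3, Mthfd2 and Chac1, from 101 to 0.43 FPKM. Ddit3 and Asns overlapped between mice in that order, as did Psat1 and Trib3, whereas other neighbours did not. In Sox4-MKO the order was Atf4, Phgdh, Asns, Ddit3, Psat1, Shmt2, Sesn2, Chac1, Mthfd2 and Trib3, from 69.5 to 1.60 FPKM. There Phgdh and Asns, Shmt2 and Sesn2, Chac1 and Mthfd2, and Mthfd2 and Trib3 overlapped. Several pairs stood in opposite order in the genotypes, such as Ddit3 and Phgdh, Shmt2 and Psat1, and Chac1 and Trib3. In both Sox4f/f mice Trib3 was above Chac1, and in both Sox4-MKO mice Chac1 was above Trib3.

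Atf4, at positions 80255184 to 80257541 of chromosome 15 (GRCm38), encodes the factor at the centre of the response. Its level was 98.4 and 104 FPKM in Sox4f/f mice 1 and 2, against 69.2 and 69.8 FPKM in Sox4-MKO mice 1 and 2. The genotypes were apart and the mice of each were close together. Means were 101 ± 4.0 FPKM for Sox4f/f and 69.5 ± 0.43 FPKM for Sox4-MKO (SD, n = 2 each). Sox4-MKO was lower by a log2 fold change of -0.54 (SE 0.11, limma adjusted p = 0.207), and between -0.58 and -0.50 in the fits without 1 library. Its unadjusted limma p stayed under 0.05 in all 4 of these fits. The brown adipocyte sums were lower in the same 2 libraries, and their part in the Atf4 and Ddit3 differences was not tested.
Ddit3 encodes CHOP, a partner of C/EBP factors that is linked to cell death under lasting stress, and lies on chromosome 10 from 127290774 to 127296288. It had 43.9 and 29.7 FPKM in Sox4f/f and 24.7 and 18.3 FPKM in Sox4-MKO. The higher Sox4-MKO mouse was closer to the lower Sox4f/f mouse than to the other Sox4-MKO mouse. On the log2 scale the difference of -0.74 (SE 0.25, limma adjusted p = 0.275) was -0.46 without Sox4f/f mouse 1 and -0.53 without Sox4-MKO mouse 2, and in neither fit was the unadjusted p under 0.05. Of its exonic bases, 4.73% are shared with other genes on the opposite strand, and whether counting used strand is not stated.
Trib3 encodes a pseudokinase that CHOP and ATF4 induce and that holds both back. It had 6.28 and 2.43 FPKM in Sox4f/f and 1.84 and 1.36 FPKM in Sox4-MKO. Sox4f/f mouse 1 stood above the other 3 libraries, which lay within a narrow range. With a log2 fold change of -0.95, Trib3 had a 95% interval from -2.03 to 0.13 (limma adjusted p = 0.345), and it was -0.41 without Sox4f/f mouse 1 and -1.49 without Sox4f/f mouse 2, where the unadjusted limma p was 0.0114. It came from an estimated 44 to 171 fragments per library. Within a library, the ratio of Trib3 to Atf4 was 0.064 and 0.023 in Sox4f/f and 0.027 and 0.019 in Sox4-MKO, so the genotypes overlapped.

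Asns, Chac1 and Sesn2 act on amino acids and on the response to their shortage. Asns encodes asparagine synthetase, a standard readout of ATF4. It had 33.6 and 31.2 FPKM in Sox4f/f and 27.7 and 30.8 FPKM in Sox4-MKO, which separates the genotypes only narrowly. Asns thus had a log2 fold change of -0.14, with a 95% interval from -0.48 to 0.19 (limma adjusted p = 0.60). Relative to Atf4 it was higher in both Sox4-MKO mice, at 0.40 and 0.44 against 0.34 and 0.30.
Chac1 encodes an enzyme that degrades glutathione and is induced by ATF4 together with CHOP and ATF3. Its position is 119351229 to 119354381 on chromosome 2. It had 0.76 and 0.098 FPKM in Sox4f/f mice 1 and 2 and 3.42 and 1.90 FPKM in Sox4-MKO mice 1 and 2. Both Sox4-MKO mice were above both Sox4f/f mice, and the Sox4f/f mice differed 7.69-fold from each other. The lowest value came from an estimated 2 fragments, for which counting error alone allows 0.012 to 0.37 FPKM (exact Poisson 95% interval), and the other values from 17, 70 and 49. Its difference of 1.37 on the log2 scale (SE 0.37, limma adjusted p = 0.231) was 1.03 without Sox4f/f mouse 2 and 1.06 without Sox4-MKO mouse 1, and in neither fit was the unadjusted p under 0.05. Because its levels are low, the difference depends on the pseudocount and was 2.69 with 0.1 and 3.15 with 0.01 in place of 1.
Sesn2 encodes sestrin 2, a leucine sensor that restrains mTORC1. It had 14.3 and 19.8 FPKM in Sox4f/f and 5.86 and 13.3 FPKM in Sox4-MKO. Sox4-MKO mouse 1 was far below the other 3 libraries, and Sox4-MKO mouse 2 lay just below Sox4f/f mouse 1. At -0.85, its log2 fold change had a 95% interval from -1.90 to 0.20 (limma adjusted p = 0.372). It was -0.32 without Sox4-MKO mouse 1, the library with the most muscle RNA, and -1.38 without Sox4-MKO mouse 2, where the unadjusted limma p was 0.0124.

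**Figure D2:**
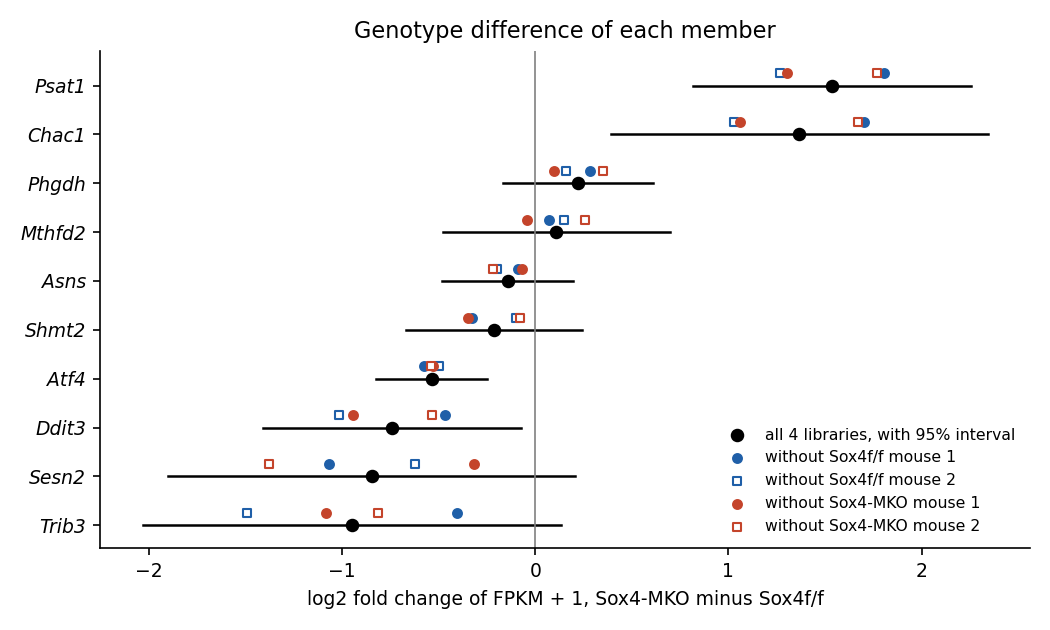
Log2 fold change of FPKM + 1 for each member, Sox4-MKO minus Sox4f/f, with the 95% interval of limma (black) and the value without each library (coloured as in the plot of levels). The intervals of Psat1, Chac1, Atf4 and Ddit3 do not reach 0, and the values of Sesn2 and Trib3 spread most when a library is left out.

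Phgdh and Psat1 carry out the first steps of serine synthesis from the glycolytic intermediate 3-phosphoglycerate, and Psph, which is not a member, the last. Psat1, the aminotransferase, lies on chromosome 19 from 15904678 to 15947337. It had 5.44 and 3.43 FPKM in Sox4f/f mice 1 and 2 and 17.2 and 12.2 FPKM in Sox4-MKO mice 1 and 2. The genotypes were well apart, with a gap wider than the spread within either. Means were 4.44 ± 1.43 FPKM for Sox4f/f and 14.7 ± 3.56 FPKM for Sox4-MKO (SD, n = 2 each), from an estimated 108 to 564 fragments. Psat1 was higher by 1.54 on the log2 scale (SE 0.27, limma adjusted p = 0.196). Fits without 1 library gave 1.27 to 1.81, each with an unadjusted p under 0.05, and the difference was the 337th highest of the 12877 genes.
Phgdh, the dehydrogenase of the pathway and usually taken as its entry point, had 27.4 and 25.1 FPKM in Sox4f/f and 33.7 and 28.1 FPKM in Sox4-MKO. The genotypes did not overlap, but Sox4-MKO mouse 2 was close to Sox4f/f mouse 1. This was a log2 fold change of 0.22, with a 95% interval from -0.17 to 0.61 (limma adjusted p = 0.494). Of its 50-base stretches, 47.8% also occur in 23 other annotated genes, so some of its reads may be shared with them. How far this affects its level was not measured. The 21 of these genes that the tables list reached at most 0.14 FPKM.
The ratio of Psat1 to Phgdh does not depend on the scaling of a library. It was 0.20 and 0.14 in Sox4f/f and 0.51 and 0.43 in Sox4-MKO, a mean of 0.17 ± 0.044 against 0.47 ± 0.055 (SD, n = 2 each). Psph, the phosphatase, had 10.3 and 13.7 FPKM in Sox4f/f and 15.3 and 15.3 FPKM in Sox4-MKO (log2 fold change 0.34, limma adjusted p = 0.412). Of the 3 enzymes, Psat1 alone had an unadjusted p under 0.05, and the 3 differences were not tested against each other.
Psat1 and Chac1 were higher in Sox4-MKO mouse 1, which had the most muscle RNA, than in Sox4-MKO mouse 2. In Sox4f/f, mouse 2 had the more muscle RNA and the lower level of both genes. Without Sox4-MKO mouse 1 limma gave 1.30 for Psat1 (unadjusted p = 0.0245) and 1.06 for Chac1 (unadjusted p = 0.0612). Sums of fibroblast, macrophage, white adipocyte, and B cell and lymphoid markers were also higher in Sox4-MKO without overlap. The white adipocyte sums were 475 and 242 FPKM in Sox4f/f and 829 and 965 FPKM in Sox4-MKO. Of the 6 white adipocyte markers tested, 4 had a log2 fold change above 0, and 2, Nnat and Npr3, below 0. Endothelial markers summed to less in Sox4-MKO, at 319 and 409 FPKM against 224 and 291 FPKM. Of these 10 markers, 7 had a log2 fold change below 0 and 3 above 0. B cell and lymphoid markers summed to 18.6 and 17.9 FPKM in Sox4f/f and to 30.5 and 140 FPKM in Sox4-MKO. Of the 5 tested, 4 were above 0 and 1 below 0. Schwann cell and nerve sums overlapped, at 125 and 101 FPKM against 192 and 118 FPKM. Of the 6 tested, 5 were above 0 and 1 below 0. The part of muscle and of each of these lists in the Psat1 and Chac1 differences was not tested.

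Mthfd2 and Shmt2 are the mitochondrial folate enzymes that are known to respond to mitochondrial stress. Mthfd2, which is mostly expressed in embryonic and proliferating cells, was low in every library, with 1.65 and 1.79 FPKM in Sox4f/f and 2.26 and 1.64 FPKM in Sox4-MKO. The groups overlapped. Its log2 fold change was 0.11, with a 95% interval from -0.48 to 0.70 (limma adjusted p = 0.828), and its sign turned to -0.06 after quantile normalization and to -0.04 without Sox4-MKO mouse 1. It came from an estimated 45 to 59 fragments per library.
Shmt2, the mitochondrial serine hydroxymethyltransferase, had 11.6 and 13.7 FPKM in Sox4f/f and 11.9 and 9.71 FPKM in Sox4-MKO, also with overlap. Its log2 fold change of -0.21 came with a 95% interval from -0.67 to 0.24 (limma adjusted p = 0.563). Its cytosolic counterpart Shmt1, by contrast, was lower without overlap, at 16.7 and 16.0 FPKM against 8.05 and 10.2 FPKM (log2 fold change -0.78, standard error 0.17, limma adjusted p = 0.211). Without Sox4f/f mouse 1 its unadjusted limma p was 0.0555. The ratio of Shmt2 to Shmt1 was 0.70 and 0.86 in Sox4f/f and 1.48 and 0.95 in Sox4-MKO.

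**Figure D3:**
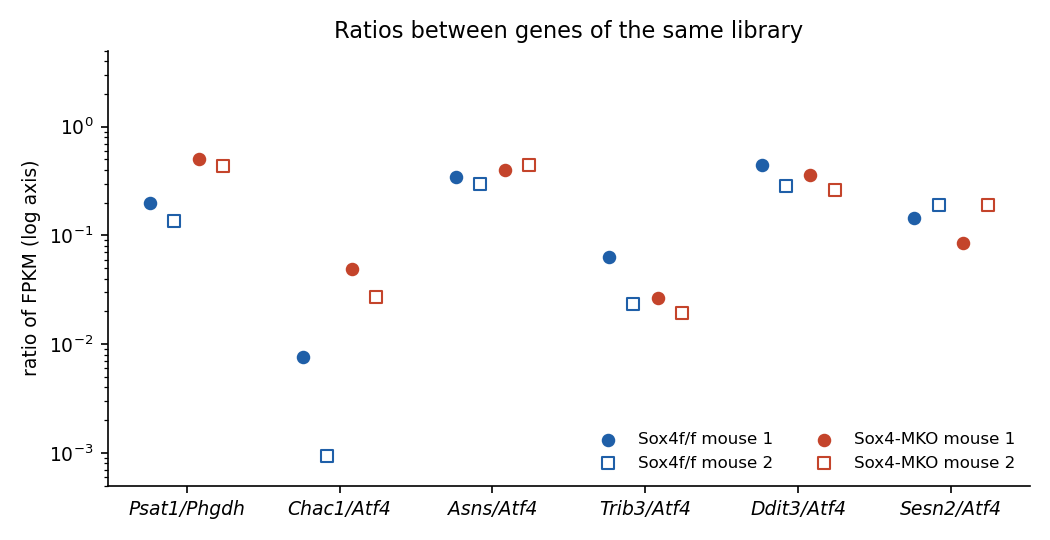
Ratios of FPKM between genes of the same library, on a log axis, with colours and symbols as in the plot of levels. For Psat1 to Phgdh, Chac1 to Atf4 and Asns to Atf4 the Sox4-MKO mice lie above the Sox4f/f mice, and for Trib3, Ddit3 and Sesn2 to Atf4 the genotypes overlap.

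Another 119 genes of the pathway were arranged in 7 lists, and 107 of them passed the filter. limma had 11 lower and 4 higher at an unadjusted p under 0.05, which is 14.0% of them against 16.2% of all tested genes, and 0 after adjustment. The rescaling named above gave 7 lower and 7 higher. Their median log2 fold change was -0.026 as deposited. For the counts by list below, 8.28% of all tested genes were lower and 7.95% higher.
Upstream of ATF4, 2 of 19 genes for eIF2 alpha kinases, their activators, initiation factors and phosphatase subunits were lower and 0 higher, with a median of 0.027. After the rescaling the count turned to 0 lower and 2 higher, and without either Sox4f/f mouse 2 or Sox4-MKO mouse 1 it was 0 lower. Ppp1r15a (GADD34), the phosphatase subunit that the response itself induces, had 7.81 and 11.3 FPKM in Sox4f/f and 5.51 and 5.98 FPKM in Sox4-MKO (log2 fold change -0.63, limma adjusted p = 0.275). Gcn1, an activator of the kinase GCN2, went from 14.5 ± 0.063 to 10.6 ± 0.89 FPKM (SD, n = 2 each). Each of these lost its call in 3 of the 4 fits without a library. In the mitochondrial arm, Oma1 had 4.94 and 5.79 FPKM in Sox4f/f and 8.29 and 7.04 FPKM in Sox4-MKO. Its log2 fold change was 0.44, with a 95% interval from -0.011 to 0.90 (limma adjusted p = 0.315). Dele1 had 20.0 and 22.3 FPKM against 21.8 and 16.9 FPKM, and Eif2ak1, which encodes HRI, 12.5 and 11.9 FPKM against 13.0 and 11.7 FPKM, both with overlap. The kinases Eif2ak3 (PERK) and Eif2ak4 (GCN2) overlapped as well, with log2 fold changes of -0.20 and 0.027.
Among 11 tested transcription factors and secreted proteins of the response, 1 was lower and 0 higher, with a median of -0.14. The count was 3 lower without Sox4f/f mouse 1 and with the replicate block, and it turned to 0 lower and 2 higher without Sox4-MKO mouse 1. The lower gene was Cebpb, a dimer partner of ATF4 that adipogenesis also uses, with 83.2 and 123 FPKM in Sox4f/f and 46.0 and 62.7 FPKM in Sox4-MKO. Its log2 fold change of -0.90 (SE 0.26, limma adjusted p = 0.241) was -0.62 without Sox4f/f mouse 2 and -0.69 without Sox4-MKO mouse 1, with no call in either fit. Atf5, a relative of ATF4 linked to the mitochondrial unfolded protein response, had 87.8 and 114 FPKM against 61.7 and 80.9 FPKM (log2 fold change -0.50, limma adjusted p = 0.333). The genes of the stress hormones GDF15 and FGF21 stayed at or below 1.78 FPKM. Gdf15 had 0.55 and 1.78 FPKM in Sox4f/f and 0.57 and 0.31 FPKM in Sox4-MKO, and Fgf21 had 0.16 and 0.38 FPKM in Sox4f/f and was listed at 0 in both Sox4-MKO libraries.
Of 15 amino acid transporters and enzymes known to be under ATF4, 10 were tested, 0 were lower and 1 was higher, with a median of 0.033. The higher gene was Gpt2, the mitochondrial alanine aminotransferase, with 8.13 and 7.25 FPKM in Sox4f/f and 22.6 and 20.3 FPKM in Sox4-MKO. Its log2 fold change was 1.37 (SE 0.14, limma adjusted p = 0.191), and 1.30 to 1.45 in the fits without 1 library. Without Sox4-MKO mouse 2 the list had 1 lower and 2 higher. The cystine transporter Slc7a11 was at 0.037 FPKM or below in every library. Of 20 cytosolic aminoacyl-tRNA synthetases, many of which ATF4 is known to activate, 1 was lower, Vars, from 18.2 ± 1.14 to 14.0 ± 0.020 FPKM (SD, n = 2 each), and 0 were higher. Their median was -0.036, and Vars lost its call in each of the 4 fits without a library, with log2 fold changes from -0.415 to -0.294 against -0.354. Without moderation 4 of the list were lower.
Of 19 further serine, glycine and folate enzymes, 14 were tested, 2 were lower and 2 higher, with a median of 0.012. Besides Shmt1, the lower gene was Gcsh of the glycine cleavage system, from 92.1 ± 3.54 to 65.7 ± 2.30 FPKM. The higher genes were Sfxn1, the mitochondrial serine carrier, from 47.2 ± 2.23 to 67.4 ± 13.1 FPKM, and Aldh1l1, the cytosolic formyltetrahydrofolate dehydrogenase, from 22.8 ± 5.94 to 33.8 ± 2.38 FPKM (SD, n = 2 each). Both higher genes lost their call in 3 of the 4 fits without a library, and Gcsh without Sox4f/f mouse 1, where 0 of the list were lower. Without either Sox4f/f mouse 2 or Sox4-MKO mouse 2, 0 were higher. Mthfd1l and Aldh1l2 stayed below 1 FPKM in all 4 libraries.
In the unfolded protein response of the endoplasmic reticulum, 0 of 21 genes were lower and 1 was higher, with a median of 0.15. The higher gene was Sdf2l1, a chaperone partner, from 4.86 ± 0.017 to 8.39 ± 1.46 FPKM (SD, n = 2 each), which lost its call in 3 of the 4 fits without a library. Without Sox4-MKO mouse 1, 5 of the list were higher, and without each other library 0 were. Hspa5, which encodes BiP, the main chaperone of this compartment, overlapped between the genotypes, at 167 and 142 FPKM against 131 and 170 FPKM.
Mitochondrial chaperones and proteases had the lowest median of the 7 lists, -0.35. Of its 12 genes, 5 were lower and 0 higher, and 11 had both Sox4f/f mice above both Sox4-MKO mice, against 8.28% and 29.6% of all tested genes. The 5 became 2 and 3 when Sox4f/f mouse 1 or 2 was left out, and 6 and 8 when Sox4-MKO mouse 1 or 2 was. The protease subunits Afg3l2, from 85.0 ± 8.14 to 55.2 ± 2.72 FPKM, and Clpp, from 87.0 ± 1.43 to 58.6 ± 5.84 FPKM, were among them, with the chaperones Dnaja3, from 101 ± 2.78 to 68.9 ± 4.18 FPKM, and Trap1, from 124 ± 0.46 to 93.4 ± 3.40 FPKM (SD, n = 2 each). Clpp lost its call without Sox4f/f mouse 1, and Trap1 without either Sox4f/f mouse. Brown adipocyte markers were lower in the same libraries, with a median log2 fold change of -0.86 and 7 of 10 called, and their part in these values was not tested.

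**Figure D4:**
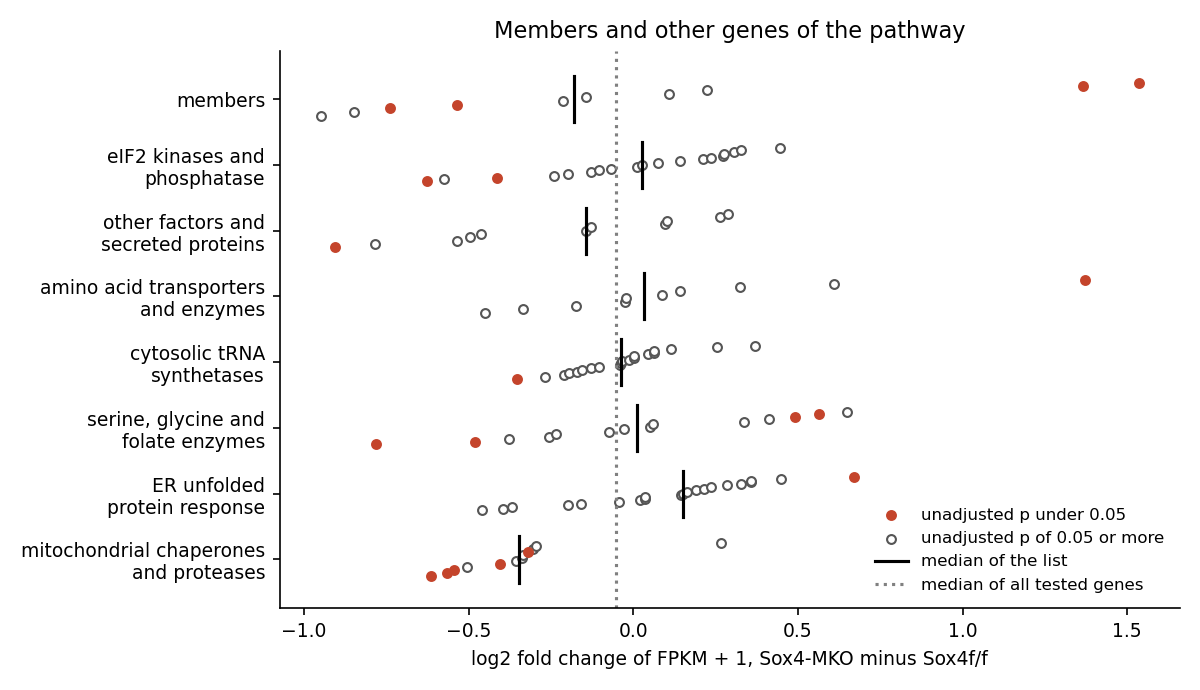
Log2 fold change of FPKM + 1 of every tested gene, Sox4-MKO minus Sox4f/f, by list, with genes at an unadjusted p under 0.05 in red, list medians as black bars and the median of all tested genes as a dotted line. Psat1, Chac1 and Gpt2 lie furthest to the right, and the mitochondrial chaperones and proteases lie to the left except for 1 gene.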

How the data were processed

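The sample labels gave each library's genotype and mouse number. The authors deposited FPKM per gene for each library, in tables of 55387 rows. The submitters' processing notes name the mm10 build, Cufflinks 2.1.1 and Cuffdiff. The aligner and the annotation are not given in the sources used here. Following the filter that the study's methods describe, genes whose mean exceeded 1 FPKM in either genotype entered limma 3.58.1 in R 4.3.3 on log2(FPKM + 1), genotype as the only term and a trended prior. Two-sided p-values were adjusted by Benjamini-Hochberg over all 12877 genes. The code was tested on simulated data, in which 200 of 12877 genes were changed by 1 on the log2 scale. Of the changed genes, limma gave 73.5% an unadjusted p under 0.05 and 12% an adjusted p under 0.05. Of the unchanged genes, 4.73% had an unadjusted p under 0.05. The simulated spread depended on the level of a gene only, so recovery in the real data can differ.
Every member was named. Of each list, genes with an unadjusted p under 0.05 and no overlap were named, at most 4 in each direction, besides 13 pathway genes and Sox4 fixed by name. The ratios between genes and the 3 promoter motifs were chosen after values were seen. Members and lists were chosen with earlier results of these data known.
Fragments were estimated from the lowest values of genes with 1 transcript of at least 1500 nt. They are approximate, and their intervals cover counting error only. Positions are from GENCODE M21 by symbol and promoters from RefSeq (GRCm38.p6). The alternatives were a replicate block, each library left out, 3 other scalings, pseudocounts of 0.1 and 0.01, filters of 0.1 and 5 and none, no moderation, and a fold change of at least 1.5. Figures were drawn with matplotlib 3.10.9. The labels describe separate mice, and the ChIP sequencing of the study was not analysed here.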

Additional observations from a re-analysis of the deposited data

How the results depend on the processing

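With 2 mice per genotype and no call after adjustment, all counts here use limma's unadjusted p with a threshold of 0.05. Depth limits Chac1 and Mthfd2, whose values rest on at most 70 estimated fragments. It also limits Trib3, which rests on 171 in Sox4f/f mouse 1, 59 in Sox4f/f mouse 2, and 47 and 44 in Sox4-MKO mice 1 and 2. Of the members, Atf4, Asns, Phgdh and Shmt2 kept their direction and their side of 0.05 in every alternative fit run for them. The counts of members were 2 lower and 2 higher. They became 4 lower with the replicate block (Trib3 and Sesn2 were added) and 1 higher with a filter of 5 FPKM (Chac1 was not tested). They became 1 lower and 0 higher without moderation. They became 1 lower with a fold change of at least 1.5, a limit that Atf4 (1.46-fold) did not reach. Without each library they ran from 1 to 3 lower and from 1 to 2 higher. The members' median log2 fold change was -0.11 after rescaling without the mitochondrially encoded genes and Ucp1, -0.21 with a filter of 5 FPKM, and from -0.21 to -0.15 without each library. For the 107 other pathway genes the counts were 11 lower and 4 higher. The same rescaling gave 7 lower, 7 higher and a median of 0.04, no moderation gave 2 higher, and a fold change of at least 1.5 gave 4 lower and 2 higher. Without each library they ran from 5 to 15 lower and from 1 to 9 higher, with medians from -0.076 to 0.043. Over all genes, 1066 were lower and 1024 higher, against 746 and 1322 after the rescaling, 553 higher without moderation, 471 lower with a fold change of at least 1.5, and from 380 to 1015 lower and from 433 to 1443 higher without each library, where 0 to 4 passed adjustment. Directions turned for Mthfd2 (-0.056 by quantile normalization, from -0.042 to 0.26 without each library), Eif2ak1 (-0.010 with a common median, from -0.056 to 0.077 without each library), Eif2ak4 (-0.122 by quantile normalization, from -0.076 to 0.13 without each library), Dele1 (from -0.302 to 0.043 without each library), Hspa5 (0.029 after the rescaling, from -0.232 to 0.147 without each library) and Sox4 (from -0.323 to 0.714 without each library). Except where a gene was not tested, the cause was not tested. The replicate numbers do not pair the mice in the labels, and deviations of same-numbered mice correlated at -0.0122. With the replicate block, 938 genes were lower and 970 higher.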
